A study of Mus musculus with 6 samples.

Results

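The 10 genes described here encode proteins that end the photoreceptor light response or adjust it through calcium, and they were taken as a fixed list: Rcvrn, Grk1, Rgs9, Rgs9bp, Gnb5, Guca1a, Guca1b, Gucy2e, Gucy2f and Pdc. They were 10 of the 52636 genes in the count table and held 431279 of its 28002465 UMIs (unique molecular identifiers, each marking 1 captured transcript). Single cells came from retinas of 12-month-old male C57BL/6J mice, 3 of them Dram2 wt/wt and 3 Dram2 ko/ko. The ko/ko mice carried a germline CRISPR/Cas9 deletion of exon 4 in both Dram2 copies, present in every cell type, and no other allele or treatment is given for either genotype. The labels placed replicate 3 of each genotype in batch 1 and replicates 1 and 2 in batch 2.

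In the dark, photoreceptors keep cGMP high and calcium enters through cGMP-gated channels. Light activates the visual pigment, transducin and phosphodiesterase in turn, so that cGMP falls and the channels close. The response is ended at several steps. The kinase encoded by Grk1 phosphorylates the active pigment so that arrestin can bind it. Recoverin, encoded by Rcvrn, is a calcium sensor that holds the kinase back while calcium is high. The GTPase-accelerating complex, made of RGS9, its partner Gβ5 (Gnb5) and the membrane anchor R9AP (Rgs9bp), switches transducin off. The retinal guanylate cyclases encoded by Gucy2e and Gucy2f make new cGMP, and the calcium sensors GCAP1 (Guca1a) and GCAP2 (Guca1b) stimulate them once calcium has dropped. Phosducin, encoded by Pdc, binds the βγ subunits of transducin.

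The 4 members in which a CRX-type motif stood before the transcription start are shown first, because the list is otherwise known here only by symbol. CRX is a homeobox factor of photoreceptors. The letters TAATCC were searched on both strands, where the other strand reads GGATTA, in RefSeq promoter windows from 250 bases before to 50 bases after the start (GRCm38.p6). Windows were found for 7 members, and 4 of them held the letters, against 7.06% of 32851 windows. The 250 bases before the start are printed 5′ to 3′ on the strand of the gene, with the motif in capitals.
Guca1a (chr17:47400607-47400856, minus strand): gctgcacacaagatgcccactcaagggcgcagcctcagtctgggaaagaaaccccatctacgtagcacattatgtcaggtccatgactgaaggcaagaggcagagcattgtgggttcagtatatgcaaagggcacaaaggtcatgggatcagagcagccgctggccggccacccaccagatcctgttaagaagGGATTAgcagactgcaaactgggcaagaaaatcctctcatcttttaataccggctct
Gucy2e (chr11:69237023-69237272, minus strand): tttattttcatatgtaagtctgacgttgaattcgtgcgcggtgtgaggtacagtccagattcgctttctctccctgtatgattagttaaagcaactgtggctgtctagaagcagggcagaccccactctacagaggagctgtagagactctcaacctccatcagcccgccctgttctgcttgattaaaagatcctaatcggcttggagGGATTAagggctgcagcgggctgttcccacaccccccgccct
Gucy2f (chrX:142196937-142197186, minus strand): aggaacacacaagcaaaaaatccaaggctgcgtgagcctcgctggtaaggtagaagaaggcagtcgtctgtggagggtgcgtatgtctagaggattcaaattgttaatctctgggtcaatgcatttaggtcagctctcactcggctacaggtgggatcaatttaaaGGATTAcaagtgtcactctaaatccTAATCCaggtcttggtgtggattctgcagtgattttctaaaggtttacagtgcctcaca
Gnb5 (chr9:75306038-75306287, plus strand): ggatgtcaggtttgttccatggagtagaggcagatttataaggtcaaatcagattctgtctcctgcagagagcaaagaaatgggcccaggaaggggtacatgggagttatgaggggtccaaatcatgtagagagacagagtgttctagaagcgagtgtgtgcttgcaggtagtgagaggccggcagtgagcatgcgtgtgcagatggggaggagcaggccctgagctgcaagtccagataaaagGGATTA
The first base of the motif lay 57 bases before the start in Guca1a, 42 in Gucy2e and 6 in Gnb5. Gucy2f held it at 84 and at 59 bases before the start, once in each orientation. The windows of Pdc, Grk1 and Rgs9 did not contain these letters. A match describes the letters only and is not evidence of binding. Rcvrn, Rgs9bp and Guca1b were not matched.

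The genes lay on 7 chromosomes (GRCm38, GENCODE M21). Guca1a (chr17:47394558-47400584, minus strand) and Guca1b (chr17:47385393-47392967, plus strand) were neighbours with 1590 bases between them. Rcvrn (chr11:67695326-67703333, plus strand), Gucy2e (chr11:69218117-69237036, minus strand) and Rgs9 (chr11:109225355-109298129, minus strand) shared chromosome 11. Grk1 (chr8:13405081-13421951, plus strand) and Rgs9bp (chr7:35578993-35585582, minus strand) stood alone, and Gucy2f (chrX:142081160-142196931, minus strand) was X-linked. Gnb5 (chr9:75306288-75345876, plus strand) overlapped the antisense genes Gm19531 and Gm48677, and Pdc (chr1:150319417-150333906, plus strand) overlapped the antisense gene 2310030A07Rik and Gm37764 on its own strand. Rcvrn overlapped Glp2r on the other strand. How the counting treated such overlaps was not given in the sources used here.

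The 6 retinas held 7014 to 9242 cells and 3463728 to 6563762 UMIs each, with a median of 406 to 609 UMIs per cell. Of the 46375 cells, 45746 carried 1 of 5 cell types deposited by the authors: photoreceptors, interneurons, glia, mesenchymal cells and RPE (retinal pigment epithelium) cells. Müller glia genes and RPE genes led the glia and RPE classes, while endothelial, microglial and pericyte genes (Cldn5, C1qa, Rgs5) led the mesenchymal class and fibroblast markers there stayed at or below 17.5 CPM. For each type, the UMIs of a retina were added up, and levels are given as CPM, UMIs of a gene per 1000000 UMIs of that sum. Mitochondrial genes took 3.22% and 2.75% of UMIs in the batch 1 retinas (wt/wt and ko/ko), 0.720% in ko/ko replicate 1 and 0.405% to 0.573% in the other 3. Dram2 was at 27.8 to 56.0 CPM in wt/wt and 27.4 to 53.5 CPM in ko/ko, but 3′ tags lie outside exon 4, so this does not check the genotype. The labels describe the tissue as retina in the sample fields but as choroid in the design text, and they disagree on the number of libraries. Each retina was taken as 1 replicate, and p-values measure the spread between these retinas only.

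All 10 genes had their highest mean level in photoreceptors among the 5 deposited types. For 8 of them every retina's photoreceptor level was above every retina's level in each other type, and Rgs9 and Gnb5 were the exceptions. The share of all genes with such an order was not computed, so neither count is read as particular to these genes. The types are themselves clusters of these counts, so their order is a description without a test. The 10 genes together made up 1.59% to 2.24% of photoreceptor UMIs, while the ranges elsewhere were 0.243% to 0.347% (interneurons), 0.171% to 0.357% (glia), 0.129% to 0.361% (mesenchymal) and 0.211% to 0.339% (RPE). In these sums, fewer expressing cells and less RNA per cell cannot be told apart.

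**Figure D1:**
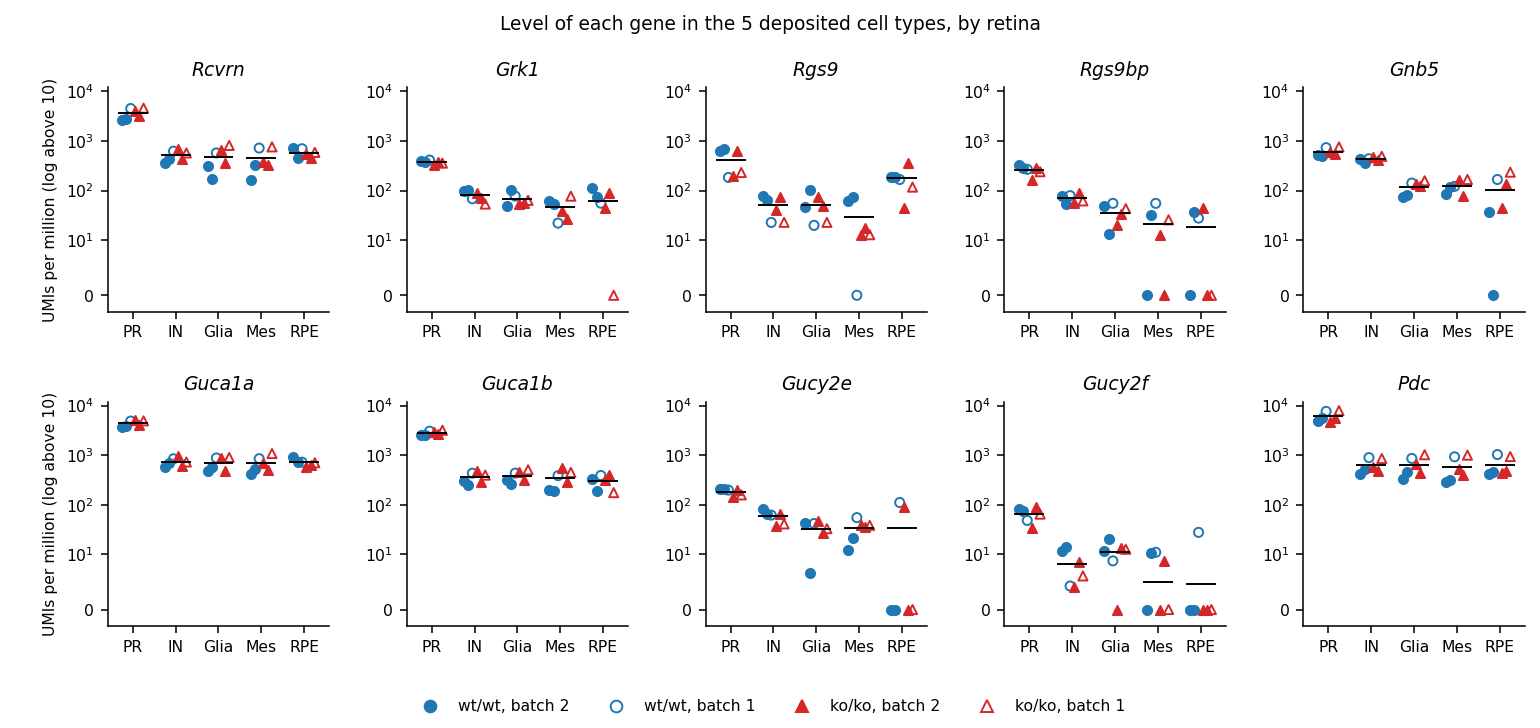
Level of each gene (CPM, logarithmic above 10) in photoreceptors (PR), interneurons (IN), glia, mesenchymal cells (Mes) and RPE cells, with 1 point per retina and a line at the mean of 6 retinas. Photoreceptors hold the highest mean in each panel, and the interneuron points of Gnb5 lie close to its photoreceptor points.

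Among the genes acting on the pigment, Rcvrn stood at 2695, 2816 and 4491 CPM in photoreceptors of wt/wt replicates 1 to 3 and at 3948, 3187 and 4576 CPM in ko/ko replicates 1 to 3. Its mean of 3619 ± 833 CPM (SD, n = 6) was 6.34 times the next mean, 571 CPM in RPE cells. Grk1 was far steadier, at 389, 383 and 411 CPM in wt/wt and 321, 383 and 356 CPM in ko/ko photoreceptors. The Grk1 mean, 374 ± 31.2 CPM, was 4.64 times that of interneurons, the next type. The lowest Rcvrn value in photoreceptors was above the highest of any other type, 809 CPM in glia, and the same was true of Grk1, whose highest value elsewhere was 112 CPM.

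In the GTPase-accelerating complex, the RGS subunit varied most from retina to retina. Rgs9 was at 624, 672 and 183 CPM in wt/wt and at 197, 624 and 231 CPM in ko/ko photoreceptors. Thus 3 retinas were above 600 CPM and the other 3 below 240 CPM, with both genotypes in each set. Outside photoreceptors the highest Rgs9 mean was in RPE cells, 176 CPM from 27 UMIs in all, and the RPE range of 44.7 to 355 CPM overlapped that of photoreceptors. Rgs9bp, the anchor, was at 327, 282 and 267 CPM in wt/wt and 166, 291 and 239 CPM in ko/ko photoreceptors. Its mean of 262 ± 55.3 CPM was 3.77 times the interneuron mean, with no overlap.

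Gnb5, whose product also pairs with the RGS proteins of other neurons, was the member shared most evenly with another type. Its photoreceptor levels were 525, 487 and 732 CPM in wt/wt and 600.4, 535 and 758 CPM in ko/ko. Interneurons stood at 432, 363 and 438 CPM in wt/wt and 484, 419 and 488 CPM in ko/ko. The highest interneuron retina therefore passed the lowest photoreceptor retina by a small margin, and the means differed 1.39-fold. Interneurons were in turn 3.56 times as high in Gnb5 as mesenchymal cells, the next type, with no overlap. Every other pair of neighbours among the 4 remaining types overlapped, for all 10 genes.

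The other genes of the R7 family complexes, which use the Gnb5 product in bipolar and other neurons, lay mostly in interneurons. Gpr179, the anchor at ON bipolar dendrites, was at 269 to 382 CPM in interneurons, Rgs11 at 113 to 179 CPM, Rgs7 at 47.6 to 112 CPM and Rgs7bp at 28.5 to 73.5 CPM. In photoreceptors none of the 4 passed 13.7 CPM in any retina. Rgs6 was found mainly in glia, at 87.1 to 220.2 CPM, and Gpr158 stayed at or below 17.1 CPM in each of the 5 types.

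The calcium sensors and cyclases came next. Guca1a was at 3711, 3853 and 4866 CPM in wt/wt and 5188, 4094 and 4916 CPM in ko/ko photoreceptors, 6.03 times the interneuron mean. Guca1b was at 2512, 2568 and 3046 CPM in wt/wt and 2945, 2721 and 3174 CPM in ko/ko, 7.39 times the glial mean. Both sensors were above every retina of every other type. The cyclase Gucy2e stood at 204, 207 and 198 CPM in wt/wt and 144, 194 and 158 CPM in ko/ko photoreceptors. The 3 wt/wt retinas were thus above the 3 ko/ko retinas by a narrow margin, and the share of all genes so ordered was not computed. The Gucy2e mean of 184 ± 26.2 CPM was 3.14 times that of interneurons. Gucy2f was the rarest member, at 83.2, 74.1 and 48.3 CPM in wt/wt and 34.6, 88.9 and 64.8 CPM in ko/ko, and its mean of 65.7 ± 20.9 CPM was 5.90 times the glial mean.

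Phosducin had the steepest drop outside photoreceptors. Pdc was at 4853, 5527 and 7621 CPM in wt/wt and 4672, 5666 and 7897 CPM in ko/ko photoreceptors, 9.62 times the glial mean of 627 CPM. Its 2 highest retinas were those of batch 1, one of each genotype.

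Free RNA in a cell suspension can enter the droplet of any cell, so each member was also set against the rod RNA of the same sum. The list of 10 rod genes, which includes Gnat1, Gngt1, Pde6g, Pde6b, Sag, Nrl, Nr2e3, Cnga1 and Slc24a1, held 9054 to 13595 CPM even in interneurons. The ratio was taken as UMIs of a member per 1000 UMIs of that list, for comparison with the ratio in rods. Gnb5 stood at a mean of 7.57 per 1000 in rods but at 35.6 to 47.7 in interneurons, 5.34 times as high. It was also above all 6 rod values in glia (9.29 to 14.9) and mesenchymal cells (9.81 to 17.8). Guca1a ranged over 47.0 to 56.6 in rods. Its interneuron range was 59.2 to 74.6, its glial range 58.0 to 82.2 and its mesenchymal range 63.2 to 82.7. Among the deposited types other than photoreceptors, these 6 combinations of gene and type had a range wholly above the rod range. The share of all genes that did so was not computed, and the same holds for the next count. Set against the rods of the same retina, 7 further combinations with overlapping ranges were higher in 6 of 6 retinas. They were Grk1 (1.57-fold), Rgs9bp (1.98-fold) and Gucy2e (2.35-fold) in interneurons, Grk1 in glia (1.42-fold), and Rcvrn (1.24-fold), Guca1a (1.31-fold) and Rgs9 (3.30-fold) in RPE cells, the last from the 27 UMIs given above. Pdc ran the other way, below the rods of the same retina in 6 of 6 in interneurons (0.74-fold) and in glia (0.78-fold), with ranges that overlapped. In mesenchymal cells (0.78-fold) and RPE cells (0.75-fold) it was above the rods of the same retina in 2 and 1 of 6. The interneuron sums also held the cone list (Arr3, the cone opsins and 7 other genes) at 2927 to 5135 CPM, against 748 to 1262 CPM in rods. The part of cone RNA in the interneuron ratios of Guca1a and the other members was not tested. Guca1a stood at similar multiples of the rod ratio in interneurons (1.29-fold), glia (1.32-fold), mesenchymal cells (1.43-fold) and RPE cells (1.31-fold). The composition of the free RNA was not measured, so its part in these ratios was not tested either.

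To compare rods with cones, photoreceptors were clustered without the 10 genes. A cluster of 904 cells, 107 to 204 per retina, was led by cone genes and is called cone-like. Another 431 cells in clusters led by globin genes were set aside, and the remaining 41024 cells are called rod-like. Only 1 of the 10 leading genes of the rod-like cells, Cnga1, is a rod marker, and 1 cluster among them was led by mitochondrial genes and held 121 to 2939 cells per retina. The summed rod markers nevertheless stood at 57654 to 88305 CPM in rod-like cells and 16808 to 24817 CPM in cone-like cells. Median depth was 421 UMIs in rod-like and 1891 UMIs in cone-like cells. The classes are clusters of the same cells, so the ratios below carry no test.

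Cones had more Guca1a and less of most other members. Of the 10 genes, 1 was higher in cones in each of 6 retinas and 7 were lower in each. Among 11454 genes with at least 100 UMIs, 16% were higher and 16.8% lower in every retina. These genes were not matched to the members in level. The shares here and below therefore do not show how unusual the members are among genes of like level. The median log2 ratio of cone over rod CPM was -0.33 over the 10 genes and -0.0069 over all 11454. Every cone value lay above every rod value for 1 member, Guca1a, and below for 3 members, Guca1b, Gucy2f and Pdc, where 7.95% and 7.2% of all genes did so.

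**Figure D2:**
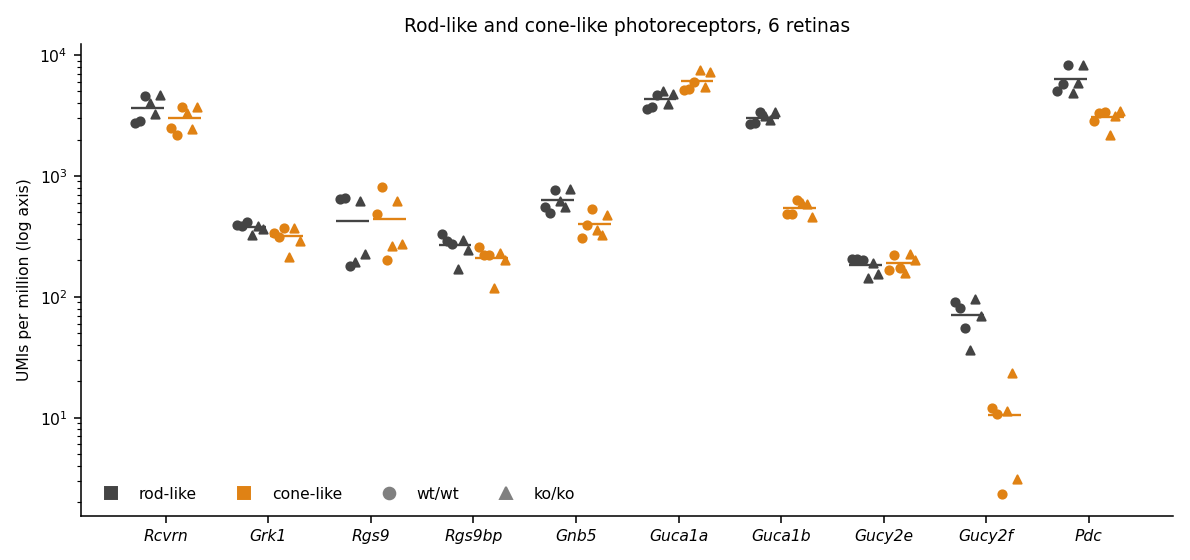
Level of each gene (CPM, log axis) in rod-like and cone-like photoreceptors, 1 point per retina and a line at the mean of 6 retinas. Guca1b and Gucy2f lie far lower in cone-like cells, Guca1a lies higher, and the Rgs9 and Gucy2e points overlap.

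The calcium sensors parted in opposite directions. Guca1a was at 3594, 3727 and 4717 CPM in wt/wt and 5032, 3974 and 4749 CPM in ko/ko rods. The same retinas gave 5106, 5291 and 6037 CPM in wt/wt and 7597, 5419 and 7213 CPM in ko/ko cones, a log2 ratio of 0.50 ± 0.09 (SD, n = 6). Guca1b went the other way, from 2708 to 3386 CPM in rods to 457 to 629 CPM in cones, 5.67-fold lower. As a share of the UMIs of the sensor pair, Guca1a took 57.0%, 57.4% and 58.2% in wt/wt and 61.8%, 57.6% and 58.5% in ko/ko rods. In cones the share was 90.3% to 94.0%, with a mean of 91.8% ± 1.40 against 58.4% ± 1.74 in rods. Guca1b averaged 539 CPM in cones, beside 357 CPM in interneurons and 383 CPM in glia. The part of free rod RNA in the cone share was not tested. UMIs count transcript ends and do not grow with transcript length, but capture may differ between genes, so the shares are compared between classes and not read as molar ratios.

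The cyclases showed a similar split. Gucy2e differed little, at 184 ± 27.4 CPM in rods and 191 ± 29.0 CPM in cones, higher in cones in 4 of 6 retinas. Gucy2f was found in rods at 71.1 ± 22.3 CPM from 1369 UMIs, whereas cones gave 17 UMIs in all, between 1 and 7 per retina. The pooled ratio was 7.41-fold higher in rods, with an exact 95% interval of 4.61 to 12.8 that covers counting error only. Retina by retina, the log2 ratio of cone over rod ran from -4.56 to -1.69. Gucy2e made up 66.9% to 79.9% of the cyclase pair in rods and 90.7% to 98.7% in cones. The cone mean of Gucy2f, 10.4 CPM, was near the 8.22 CPM of interneurons and the 11.1 CPM of glia. The part of free rod RNA in the cone values of Gucy2f was not tested.

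**Figure D3:**
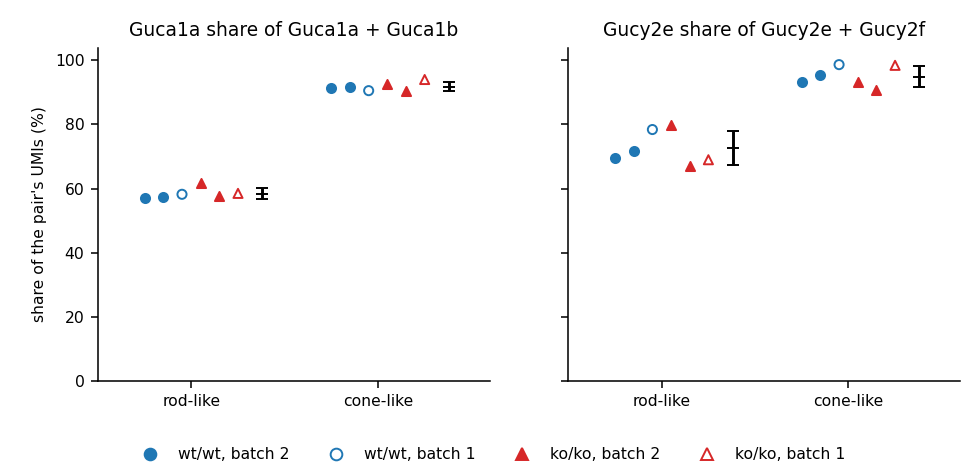
Share of Guca1a in the UMIs of Guca1a and Guca1b (left) and of Gucy2e in the UMIs of Gucy2e and Gucy2f (right), in percent, with 1 point per retina and the mean ± SD of 6 retinas beside them. Both shares lie higher in cone-like than in rod-like cells in every retina.

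On the ratio to the rod list, which contains Sag and Pde6g, at 7118 CPM or more and 4170 CPM or more in cones, the members parted again. The list itself held a median of 83176 CPM in rods and 26630 CPM in cones. A gene at equal CPM in both classes therefore also stands higher on this ratio in cones. On it, Rcvrn, Grk1, Gnb5, Guca1a and Gucy2e were above every rod value in cones, from 2.02 times (Gnb5) to 4.52 times (Guca1a). The share of all genes so placed on this ratio was not computed, so the count is not read as particular to the members. By CPM, Rcvrn, Grk1, Gnb5, Rgs9bp and Pdc were lower in cones in 6 of 6 retinas. The ranges of Rgs9 (3.49-fold), Rgs9bp (2.48-fold) and Pdc (1.56-fold) overlapped those of rods, but each was above the rods of the same retina in 6 of 6. Gucy2f also overlapped, at 0.37-fold and above the rods of the same retina in 0 of 6. Guca1b was lower in cones than in rods, at 16.6 to 23.1 against 33.3 to 42.0.

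Pdc was at 4842 to 8231 CPM in rods and 2196 to 3456 CPM in cones, 2.04-fold lower. Gnb5 was lower in cones in each retina as well, by 0.66 ± 0.19 on the log2 scale, with levels of 627 ± 119 CPM in rods and 398 ± 89.3 CPM in cones that overlapped. The remaining differences were small. The log2 ratio of cone over rod was -0.36 ± 0.09 for Rgs9bp, -0.30 ± 0.10 for Rcvrn and -0.28 ± 0.18 for Grk1, each below 0 in 6 of 6 retinas while the ranges of the classes overlapped.

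Rgs9 followed the retina and not the class. Rods stood at 639, 659 and 181 CPM in wt/wt and 195, 624 and 228 CPM in ko/ko. Cones of the same retinas stood at 485, 806 and 203 CPM in wt/wt and 265, 625 and 272 CPM in ko/ko. The log2 ratio was 0.13 ± 0.30, above 0 in 5 of 6 retinas, and the 3 retinas with high Rgs9 in rods were the 3 with high Rgs9 in cones.

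For scale, the 10 rod activation genes were all lower in cones in each retina, with a median log2 ratio of -2.78 and Cnga1 (-3.68), Gnb1 (-3.28) and Slc24a1 (-3.27) the furthest. Nr2e3 (-3.13) followed Cnga1 and Slc24a1 among the reference genes, whose median was -2.93. The 10 cone activation genes were all higher, among them Opn1sw (6.66), Pde6c (6.59) and Cngb3 (7.65, from 35 UMIs in rods). Cnga3, at a mean of 81.8 CPM in cones and 0 UMIs in the rods of 2 retinas, has no finite mean ratio and was not ranked. Of 16 further shutoff and calcium genes, 7 were higher in cones in each retina, 4 were lower in each and 5 were neither. Cone arrestin Arr3 was higher by 5.88 and Pde6d, which carries prenylated proteins, by 1.39 on the log2 scale, while the retinol dehydrogenase gene Rdh12 was lower by 1.88. Of 6 further R7 complex genes, 1 was higher in each retina, 1 lower and 4 mixed. Rgs7 was at 21.0 to 39.7 CPM in cones and 0.336 to 2.27 CPM in rods, from 53 and 22 UMIs. Rgs11 was at 3.13 to 9.32 and 3.70 to 13.9 CPM, from 9 and 141 UMIs.

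Counted per cell, the members were seen in nearly all photoreceptors. Cells were thinned to 300 UMIs each, which left out 13844 rod-like, 11 cone-like and 35 interneuron cells that were shallower. At this depth 99.1% of rod-like and 98.2% of cone-like cells held a UMI of at least 1 member, against 53.1% of interneurons and 50.7% of glia, where much rod RNA was also found. Pdc was seen in 80.0% of rod-like, 57.2% of cone-like and 17.1% of interneuron cells, and Guca1a in 70.1%, 81.0% and 17.0%. Guca1b was seen in 58.4% of rod-like and 12.9% of cone-like cells, the latter close to the 9.80% of interneurons. Gucy2f was seen in 2.22% of rod-like cells, 0.12% of cone-like cells, from 1 of the 6 retinas, and 0.28% of interneurons, while the unthinned shares were 3.19%, 1.91% and 1.49%. Gnb5 was in 17.2%, 10.1% and 10.3% of the 3 classes.

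The rarer members were each seen in a minority of cells at this depth. Rgs9 was seen in 11.4% of rod-like and 10.4% of cone-like cells, Grk1 in 10.6% and 10.2%, Rgs9bp in 7.61% and 6.07% and Gucy2e in 5.23% and 5.98%, with interneurons at 1.59% to 2.68% for these 4. Rcvrn was seen in 62.6%, 57.8% and 13.1% of rod-like, cone-like and interneuron cells. Without thinning, median depths were 421, 1891 and 1844 UMIs and the shares of Guca1b became 65.2%, 54.8% and 43.1%, those of Pdc 76.7%, 93.3% and 53.9%.

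The comparison of genotypes asked whether loss of Dram2 changed these genes in the aged retina. No member passed an adjusted p of 0.05 in any cell type by edgeR with Benjamini-Hochberg adjustment over all genes tested, and neither did any other gene. In photoreceptors 0 of 10 members and 0% of 13053 genes were called, with 109 genes and 0 members at an unadjusted p under 0.05, and limma-voom and DESeq2 also called 0. The counts of members tested were 10 in rod-like cells, 9 in cone-like cells and interneurons, 6 in glia, 5 in mesenchymal cells and 3 in RPE cells. The share of genes called was 0% in each of these and in all cells together, from 12480, 5197, 7698, 4130, 1717, 308 and 15330 genes. Unadjusted p-values under 0.05 numbered 85, 57, 86, 51, 150, 11 and 101 in the same order. DESeq2 called 1 gene in RPE cells, and with batch as a covariate edgeR called 21 mesenchymal and 3 RPE genes, none of them members.

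**Figure D4:**
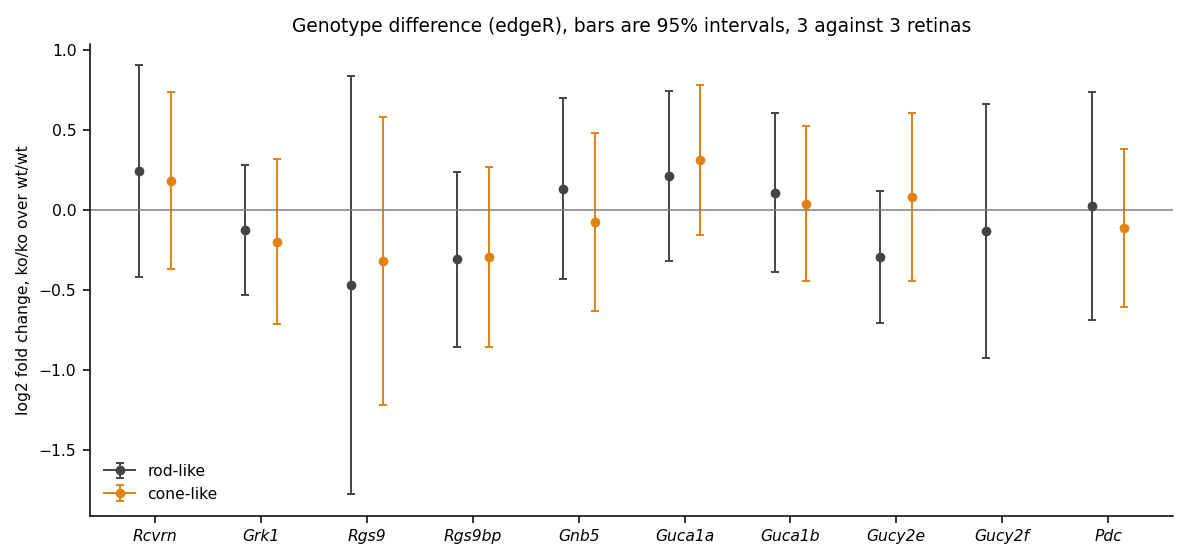
Log2 fold change of each gene, ko/ko over wt/wt, in rod-like and cone-like photoreceptors from the edgeR fits, with 95% intervals, 3 against 3 retinas (Gucy2f was too sparse to be tested in cones). Every interval includes 0, and that of Rgs9 is the widest, from -1.78 to 0.83 in rods.

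The precision differed widely among members. For Grk1 the photoreceptor log2 fold change, ko/ko over wt/wt, was -0.13 with a standard error of 0.17 and a 95% interval of -0.53 to 0.27. Rcvrn was at 0.26 (interval -0.40 to 0.91), Guca1a at 0.22 (-0.31 to 0.75), Guca1b at 0.15 (-0.33 to 0.63) and Pdc at 0.05 (-0.64 to 0.73). Gucy2e, whose lowest wt/wt retina (198 CPM) stood just above its highest ko/ko retina (194 CPM), was at -0.26 (-0.67 to 0.15). Rgs9bp was at -0.30 (-0.84 to 0.24), Gnb5 at 0.15 (-0.41 to 0.70), Gucy2f at -0.09 (-0.89 to 0.71) and Rgs9 at -0.46 (-1.75 to 0.83). The adjusted p by edgeR was 0.998 for each of the 10. The widest interval was that of Rgs9, whose fold change ran from -1.17 to -0.16 as single retinas were left out. Within batch 2 alone, 2 retinas against 2, Rgs9 was at -0.64 and Rcvrn at 0.38, with edgeR adjusted p-values of 0.73 and 0.72 and 0 members called.

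Among members tested in the 7 classes, Rcvrn in glia was the 1 combination with an unadjusted p under 0.05. Its log2 fold change there was 0.74 with a standard error of 0.34, and its adjusted p by edgeR was 1.00. Levels were 309, 174 and 571 CPM in wt/wt and 670.2, 358 and 809 CPM in ko/ko, so the groups overlapped. The summed rod markers varied from 5259 to 12499 CPM among the glia of the 6 retinas, and their part in the Rcvrn value was not tested.

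Whether the genotype difference was unlike in cones and rods was tested as an interaction with retina as a block. By edgeR 0 of 10 members and 0% of 12207 genes passed, with 449 genes and 0 members at an unadjusted p under 0.05. The values ran from -0.19 for Gnb5 to 0.77 ± 0.71 (standard error) for Gucy2f, which rests on 17 cone UMIs, and Gucy2e was at 0.39 ± 0.21. As single retinas were left out, the value ran from 0.025 to 1.31 for Gucy2f and from -0.31 to -0.10 for Gnb5. The Guca1a share of its pair in photoreceptors was 60.4% ± 0.99 in wt/wt and 61.5% ± 1.97 in ko/ko, a difference of 1.16 percentage points (2-sided exact permutation p = 0.50, n = 3 and 3). It was 2.11 points within batch 2 and -0.73 within batch 1. The Gucy2e share was 75.0% ± 4.81 and 73.4% ± 6.40 (exact permutation p = 0.70), with ko/ko minus wt/wt at 2.35 points within batch 2 and -9.39 within batch 1. Both p-values adjusted to 0.70, and with 3 retinas per genotype this test cannot go below 0.10.

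The lists around the members gave no calls between genotypes either. In the edgeR fit of photoreceptors 0 rose and 0 fell of the 10 rod activation genes, the 10 cone activation genes, the 13 tested of 16 further shutoff genes and the 4 tested of 6 further R7 genes. Their median log2 fold changes were 0.21, -0.33, 0.15 and -0.20, beside -0.02 for the 10 members and -0.01 over all genes. In cone-like cells alone the median of the cone activation genes was 0.04, with 7 of 10 above 0. The photoreceptor sums held 145, 146 and 204 cone-like cells in wt/wt and 107, 164 and 138 in ko/ko, and their part in the value of -0.33 was not tested.

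Apart from Gucy2e, the 3 highest photoreceptor values of every member came from both genotypes. Rgs9 had its 3 highest photoreceptor values in wt/wt replicates 1 and 2 and ko/ko replicate 2, and this set was fixed from Rgs9 itself. Rgs9bp and Gucy2f had their 3 highest in the same set, as did 22.5% of 11489 genes. Rcvrn, Gnb5, Guca1a and Guca1b had their 3 highest in the complementary set, wt/wt replicate 3 and ko/ko replicates 1 and 3, as did 14.9% of genes. That set holds both batch 1 retinas together with ko/ko replicate 1, which is a batch 2 retina, and it has the 3 highest mitochondrial shares. The part of the mitochondrial share in these levels was not tested. Rgs9 varied 3.67-fold between its highest and lowest retina, with a coefficient of variation of 56.9%, against a median of 17.6% over 2721 genes in the members' range of levels. The coefficient was 8.35% for Grk1 and 9.48% for Guca1b.

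**Figure D5:**
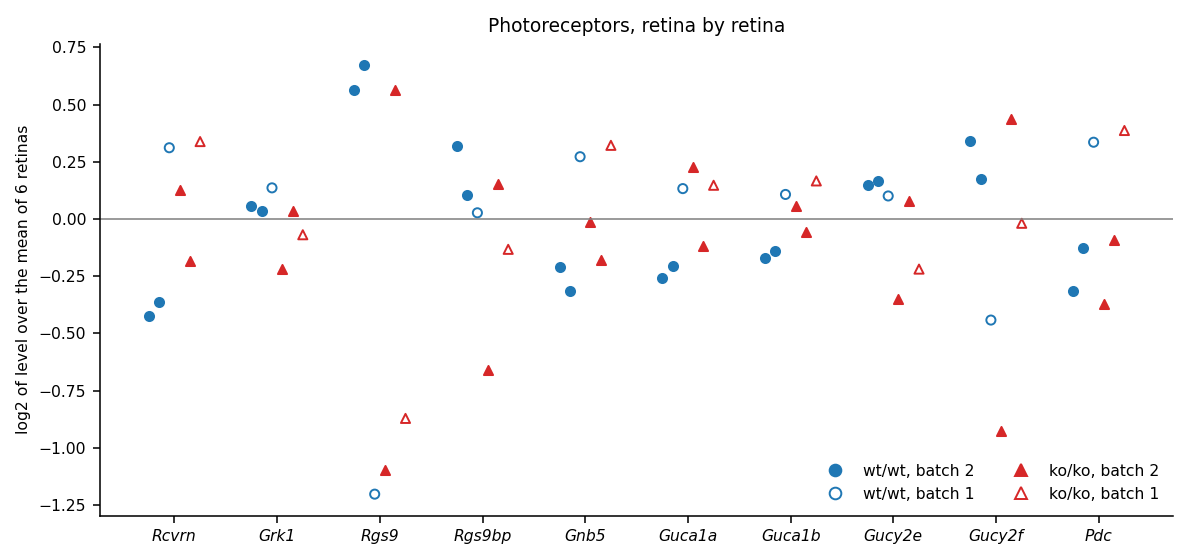
Log2 of each gene's photoreceptor level over its mean of 6 retinas, 1 point per retina, open for batch 1. The Rgs9 points form a high set of 3 and a low set of 3, each with both genotypes. The batch 1 points of Rcvrn, Gnb5, Guca1b and Pdc are the highest.

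A fit of batch 1 against batch 2 with genotype as a term was added after the data had been seen. In all photoreceptors it called 0 of 10 members and 5.49% of genes by edgeR. Without normalization factors these values were 0 and 5.39%, and with RLE factors 2 (Gnb5 and Pdc) and 6.29%. In rods it called 1 of 10 members and 5.49% of genes by edgeR. Pdc was higher in batch 1 by 0.65 ± 0.15 (log2, standard error, adjusted p = 0.0484), and at 0.61 ± 0.15 without normalization factors, where the edgeR adjusted p was 0.0537. With RLE factors 2 members were called in rods, Pdc and Gnb5 (edgeR adjusted p = 0.0388 and 0.0471). Rgs9 in rods was at -1.28 ± 0.45 (adjusted p = 0.127 by edgeR). In cones 1 of 9 members and 3.35% of genes were called, and Rgs9 was lower in batch 1 by 1.17 on the log2 scale (edgeR adjusted p = 0.020). Interneurons gave 2 of 9 members and 12.5% of genes, and glia 2 of 8 and 5.53%, with Rgs9 lower and Pdc higher in both types. The log2 differences were -1.57 and 0.77 in interneurons and -1.77 and 0.84 in glia. Per UMI of the rod list, Rgs9 stood at 0.95 times the rod ratio in interneurons and 1.02 times in glia, and Pdc at 0.74 and 0.78 times. The part of rod RNA in these batch differences was not tested. Without normalization factors, which moved the median of all genes in glia from -0.03 to 0.16, the Rgs9 calls in cones and interneurons and the Pdc calls in interneurons and glia were kept. Rgs9 in glia was then at -1.58 (edgeR adjusted p = 0.0527), and Rcvrn in glia was called, at 0.92 (edgeR adjusted p = 0.0292). Batch 1 is 1 retina of each genotype, and its difference from any other property of those 2 retinas cannot be told apart.

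Over the 30 sums of 6 retinas and 5 cell types, the gene outside the list with the most similar profile was found for 9 members by Pearson correlation of log2(CPM + 1) among 11344 genes. The sums share libraries and free RNA, so the values are descriptive. Rcvrn was most like Pde6g (0.98), Pdc like Sag (0.97) and Guca1b like 1810009A15Rik (0.96). Grk1 was most like Fam161a (0.94), a ciliary gene, Gucy2e like Slx1b (0.92), Gnb5 like Opn1sw (0.92) and Rgs9bp like Tmem63b (0.90). Rgs9 was most like Zdhhc2 (0.85) and Gucy2f like Samd7 (0.83), the lowest of these values.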

How the data were processed

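The authors aligned 10x Genomics single-cell 3′ v2 libraries to mouse exons (mm10) with Cell Ranger, given as version 3.1.0 with GRCm38 in the submitters' processing notes, and deposited raw UMI counts per gene and cell with a table of cell types. Counts were used as deposited, with no normalization by the authors. Original barcodes were replaced by anonymous names, so barcodes shared between libraries could not be counted. Symbols were matched for 52403 of 52636 gene IDs from GENCODE M21. No column of the tables was left unused (0).

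Counts were summed per retina and type. Genotypes were compared with edgeR 4.0.16 (quasi-likelihood test, TMM, filterByExpr, Benjamini-Hochberg adjusted p under 0.05) in R 4.3.3. limma-voom (limma 3.58.1), the method of the study, and DESeq2 1.42.0 were alternatives. Only the edgeR fits were tested on simulated data, which had a common spread for all genes and no batch difference. Photoreceptors were clustered with scanpy 1.11.5 (2000 variable genes without the 10 members, 30 components, 15 neighbours, Leiden resolution 1, 18 clusters), and single values were tested by exact permutation. No doublet caller was run. Removal of the 5% of cells with most UMIs stood in for it, and a stricter set kept cells with 500 UMIs or more, of which mitochondrial genes held no more than 10%.

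Named were all 10 members, the 3 genes of each list with the largest mean log2 ratio of cones to rods in either direction (genes with 0 UMIs in a retina have none), and the gene most like each member, except 1 gene that is not reported here, nor used alone as a reference for rod RNA. Other genes in the text illustrate the lists and were chosen after their values were seen, as were the R7 genes given by cell type. The members and lists were chosen with earlier results of these data known.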

Additional observations from a re-analysis of the deposited data

Results flagged for a closer look

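Cells in neither the rod-like nor the cone-like class also held UMIs of the 10 genes. In the 629 cells with no type, which entered the fit of all cells only, the members held 2.146% of UMIs (8133 of 379054), with 1.58% to 2.56% in the 6 retinas. In the 431 photoreceptors of the clusters led by globin genes, which entered the sums of photoreceptors and of all cells, they held 1.729% (4333 of 250638), with 1.36% to 2.10% by retina. Both are given because neither set was compared on its own. All photoreceptors together held 1.59% to 2.24%.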

How the results depend on the processing

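No member was called between genotypes under any of the 16 alternatives to each fit. The highest mean in photoreceptors held for all 10 genes under the 8 alternatives run for it, which were 2 sets of cells and the 6 retinas left out in turn. Without a filter on low counts 1 gene was called in photoreceptors, in rod-like cells, in interneurons and in all cells. In mesenchymal cells 21 genes were called with batch as a covariate, 35 by limma-voom with batch, 28 without the filter, 19 in batch 2 only and 0 to 7 when single retinas were left out (7 without ko/ko replicate 2). In RPE cells the counts were 1 by DESeq2, 3 with batch, 5 by limma-voom with batch, 3 without the filter, 4 in batch 2 only and 0 to 2 without single retinas. The interaction gave 1 by limma-voom with batch and 0 to 7 (7 without wt/wt replicate 3). None of these was a member, and the cause was not tested. Limma-voom with batch and batch 2 only were chosen after seeing the data. Leaving out single retinas turned the photoreceptor log2 fold change of Gnb5 (-0.021 to 0.36), Gucy2f (-0.41 to 0.22) and Pdc (-0.20 to 0.27), and the Gucy2e share difference (-5.20 to 1.12 points). Members higher in cones numbered 1 to 2 (2 without wt/wt replicate 1), and gene and type combinations above the rod ratio 6 to 10 (10 without ko/ko replicate 1). In cones Gucy2f rests on 17 UMIs.

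In photoreceptors, replicate numbers did not pair the retinas. Deviations from the group means correlated at -0.0667 for number 1, 0.537 for number 2 and 0.52 for number 3, and wt/wt replicate 1 correlated best with another number. The values were all positive in interneurons (0.105, 0.34 and 0.577), mesenchymal cells, RPE cells and all cells together. In each of these, wt/wt replicate 1 still correlated better with another number (0.328 in interneurons). The replicate block gave 26 genes in mesenchymal cells, 4 in RPE cells and 0 in the other fits, with 0 members.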
